A study of Mus musculus with 147 samples.

Results

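The genes described here are Trp53, which encodes the transcription factor p53, and 9 genes of the Bcl2 family, Bax, Bak1, Bcl2, Bcl2l1, Mcl1, Bcl2l11, Bbc3, Pmaip1 and Bid. They were taken by name from the table of counts, and all 10 were found among its 31053 genes. The study followed the male germline of the mouse over 28 time-points, from embryonic day (E) 6.5 through postnatal day (PND) 35 to the adult, by single-cell RNA sequencing with a modified STRT-seq. In this method each transcript carries a barcode of its cell and a unique molecular identifier (UMI) and is read at its 3′ end, so that the number of UMIs does not grow with the length of a transcript. Wild-type animals were offspring of C57BL/6 females and males homozygous for the reporters Blimp1-mVenus and Stella-ECFP, together called BVSC. From E8.5 to E18.5 germ cells were sorted as BVSC-positive, on Stella-ECFP alone from E14.5, and from E11.5 to E18.5 BVSC-negative cells of the gonads were kept as well. The methods of the study name a choice of males by PCR for Sry at E10.5 and E11.5. They name no choice by sex from E6.5 to E9.5, so the sex of those cells is not given. After birth single cells were picked by their look as germ cells, and at PND30 cells were also sorted by DNA content as 1N, 2N and 4N. Helq-/- (Helq null) animals carry a short deletion in the first exon of both alleles of a DNA helicase gene, made with a single guide in BVSC embryonic stem cells of a single clone, and came from crosses of chimeras, at 6 time-points between E11.5 and E18.5.

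p53 is a transcription factor that accumulates after DNA damage and other stress and switches on genes of cell-cycle arrest and of apoptosis, Bbc3 (PUMA), Pmaip1 (NOXA) and Bax among them. The Bcl2 family decides at the outer membrane of the mitochondrion whether a cell dies: Bax and Bak1 open the membrane, Bcl2, Bcl2l1 (BCL-XL) and Mcl1 hold them back, and the BH3-only proteins Bcl2l11 (BIM), Bbc3, Pmaip1 and Bid free or activate Bax and Bak1. In the male germline of the mouse this balance is known to set the loss of misplaced primordial germ cells (PGCs) and an early wave of germ cell death in the young testis, which fails without Bax.

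Promoters of 9 of the 10 genes were found in RefSeq (build GRCm38.p6), in 14 windows of 300 bases, from 250 bases before a transcription start to 50 after it. Shown are the windows of Trp53 at chr11:69580109-69580408 (forward strand), Bax at chr7:45466849-45467148 (reverse strand) and Bid at chr6:120916775-120917074 (reverse strand), since the levels of these 3 genes moved together across the germ cell pools, and that of Mcl1 at chr3:95658471-95658770 (forward strand), whose highest level was the smallest multiple of its lowest. Capitals mark the GC box GGGCGG on either strand and matches to the p53 decamer consensus, and the other bases are in lower case.
Trp53: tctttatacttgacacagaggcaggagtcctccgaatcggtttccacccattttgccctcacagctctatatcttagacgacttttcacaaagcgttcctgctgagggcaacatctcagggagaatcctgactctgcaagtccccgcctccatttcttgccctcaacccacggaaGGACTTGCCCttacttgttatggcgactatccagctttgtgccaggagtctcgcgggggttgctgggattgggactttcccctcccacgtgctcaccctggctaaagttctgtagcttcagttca
Bax: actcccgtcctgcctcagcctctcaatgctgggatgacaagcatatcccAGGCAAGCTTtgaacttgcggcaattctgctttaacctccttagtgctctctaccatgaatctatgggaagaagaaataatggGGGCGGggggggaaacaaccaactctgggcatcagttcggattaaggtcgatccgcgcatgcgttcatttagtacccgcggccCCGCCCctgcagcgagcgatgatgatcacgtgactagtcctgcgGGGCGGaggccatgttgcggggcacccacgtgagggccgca
Bid: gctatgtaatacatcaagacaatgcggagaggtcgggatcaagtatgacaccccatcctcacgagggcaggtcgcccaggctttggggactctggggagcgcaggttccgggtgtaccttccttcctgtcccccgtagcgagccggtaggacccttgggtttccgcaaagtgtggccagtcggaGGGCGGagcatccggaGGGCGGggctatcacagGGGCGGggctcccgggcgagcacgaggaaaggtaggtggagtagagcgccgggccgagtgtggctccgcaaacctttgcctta
Mcl1: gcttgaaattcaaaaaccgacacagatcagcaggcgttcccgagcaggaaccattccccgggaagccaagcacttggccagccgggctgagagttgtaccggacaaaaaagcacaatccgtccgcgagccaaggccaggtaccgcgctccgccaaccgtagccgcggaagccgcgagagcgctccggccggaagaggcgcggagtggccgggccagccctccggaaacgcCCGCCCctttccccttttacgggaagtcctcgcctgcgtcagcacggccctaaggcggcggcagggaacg
Of these windows that of Trp53 held no GC box, those of Bax and Bid 3 each and that of Mcl1 1. A p53 decamer was found in the windows of Trp53 and Bax, which made 2 of the 14 windows, against 8.36% of all 32851 promoter windows. A GC box was found in 9 of the 14, against 35.7% of all. The windows of Trp53, Bax, Bid and Mcl1 held 10, 19, 22 and 33 CpG pairs, with a median of 7 over all windows. A match is a match of letters only, and binding was not measured.

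Levels are given as UMIs of a gene per 1000000 UMIs of its pool (CPM), a pool being the summed cells of 1 class from 1 time-point, genotype and biological replicate. After the filter of the study on genes and UMIs per cell, 11598 wild-type and 1094 Helq null cells were left, and 91 pools of at least 10 cells held 887576 to 187806289 UMIs (median 21714541). Single sorted or picked cells were processed, and the 96 cell barcodes were all reused between libraries and never inside 1. BVSC-negative pools held 43.6 to 619 CPM of 14 summed germ cell markers, against a median of 2901 CPM in the germ cell pools, and 372 to 2849 CPM of 7 Sertoli markers. Cells after birth were called germ-like or somatic-like from their markers, and 2827 of 7352 kept cells got no class. From PND30 on, the rule with markers present at 20 CPM did not part the meiotic stages: it called 280 of 286 cells sorted as 4N spermatid-like, whereas with markers present at 200 CPM, a limit chosen after this was seen, 212 of the 286 were spermatocyte-like. Adult replicate 1 stood apart, and E17.5 replicate 1 held more Sertoli marker RNA in its germ cells (751 CPM) than replicate 2 (216 CPM). Cells of E6.5 and E7.5 had no gate and were not classed. Differences were tested with edgeR's quasi-likelihood test on the summed counts of all genes, with Benjamini-Hochberg adjustment over all of them, and a gene was called at an adjusted p below 0.05. Folds given with a test are those of its fit, after its scaling of the libraries, and can differ from ratios of the printed CPM.

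Over the 51 wild-type germ cell pools from E9.5 to the adult, Bax was the most abundant of the 10 transcripts in most pools, with a median of 345 CPM and a range of 3.04 to 580.2 CPM. Trp53 ranged over 12.53 to 496 CPM (median 140.0), Bcl2l1 over 20.7 to 266 CPM (median 122) and Bid over 1.21 to 125 CPM (median 86.3). Mcl1 ranged over 31.1 to 119 CPM, 3.84 times from lowest to highest, the smallest such ratio of the 9 genes with UMIs in every pool. Bcl2l11 and Pmaip1 reached 59.6 and 137 CPM. The remaining 3 genes were low throughout, with medians of 1.03 CPM for Bak1, 0.702 CPM for Bcl2 and 2.80 CPM for Bbc3, and between 2 and 2063 UMIs of Bak1, 0 and 252 of Bcl2, and 4 and 397 of Bbc3 behind a pool's value. In the plot of the 10 genes over time Trp53 and Bax ran high to E13.5, sank towards E18.5 and came back after birth, and Bcl2l1 ran the other way.

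**Figure D1:**
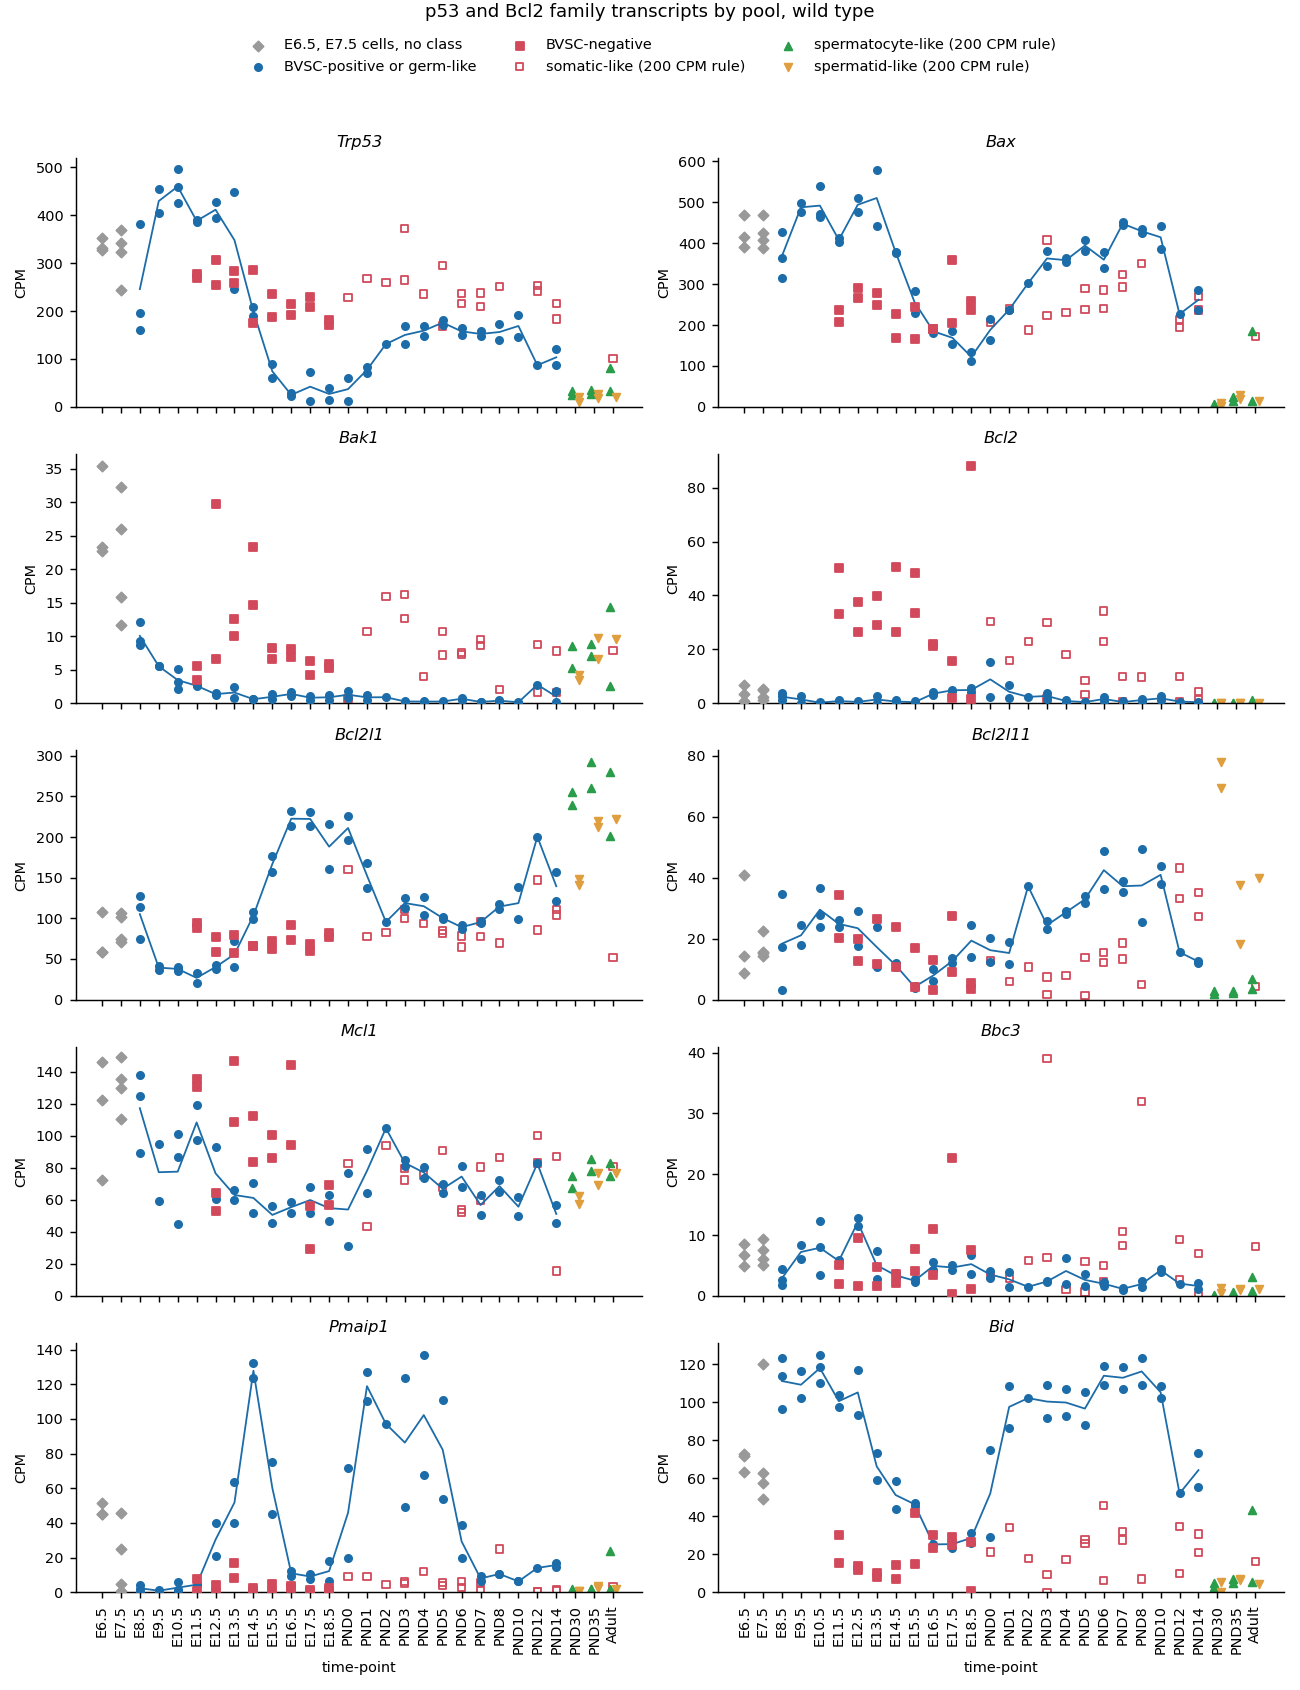
Level of each of the 10 genes (CPM) by time-point, 1 point per pool of at least 10 cells, with grey for the unclassed cells of E6.5 and E7.5, blue for BVSC-positive or germ-like cells with a line through the means, red for BVSC-negative (filled) and somatic-like (open) cells, and green and orange triangles for spermatocyte-like and spermatid-like cells by the 200 CPM rule. Trp53 falls from a median of 456 CPM over the pools of E9.5 to E10.5 to 49.95 CPM over those of E17.5 to PND1. Bcl2l1 rises over the same time, and red points of Bak1 and Bcl2 lie mostly above the blue ones.

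To follow the genes through development, germ cell pools were set in windows, and each window was compared with the one before it in a single fit over 26022 genes, so that neighbouring comparisons share the pools of the window between them. In this fit the spread of a gene was estimated over all 8 windows, those of spermatocyte-like and spermatid-like cells included. An SE is therefore not the spread of the compared windows alone. Between E9.5 to E10.5 and E11.5 to E13.5, when PGCs settle in the gonad, 1 of the 10 genes rose and none fell, with 2.53% of all genes called higher and 2.34% lower. Between E11.5 to E13.5 and E14.5 to E16.5, when male germ cells leave the mitotic cycle, 1 rose and 5 fell, with 31.1% of all genes higher and 10.9% lower. From there to E17.5 to PND1 1 fell, with 6.39% higher and 10.8% lower over all genes. From E17.5 to PND1 on to PND2 to PND6 5 rose and 1 fell, against 17.2% higher and 28.1% lower. From PND2 to PND6 to PND7 to PND14 1 fell, against 12.8% higher and 7.13% lower. The 5 members that fell at E14.5 to E16.5 therefore stand beside a background in which higher calls were the more common, and the 5 that rose at PND2 to PND6 beside one in which lower calls were.

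The balance of higher and lower calls over all genes moved with the scaling of the libraries. With the size factors of DESeq2 (relative log expression, RLE) in place of edgeR's TMM, the share of calls that were higher went from 37.1% to 62.1% at E17.5 to PND1 and from 38.0% to 21.2% at PND2 to PND6, and the median of all genes shifted by 0.17, 0.26 and -0.36 on the log2 scale at E14.5 to E16.5, E17.5 to PND1 and PND2 to PND6. Each called member kept its direction under this scaling, also relative to the shifted median, and only Mcl1 at PND2 to PND6 lost its call (adjusted p = 0.0541).

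**Figure D2:**
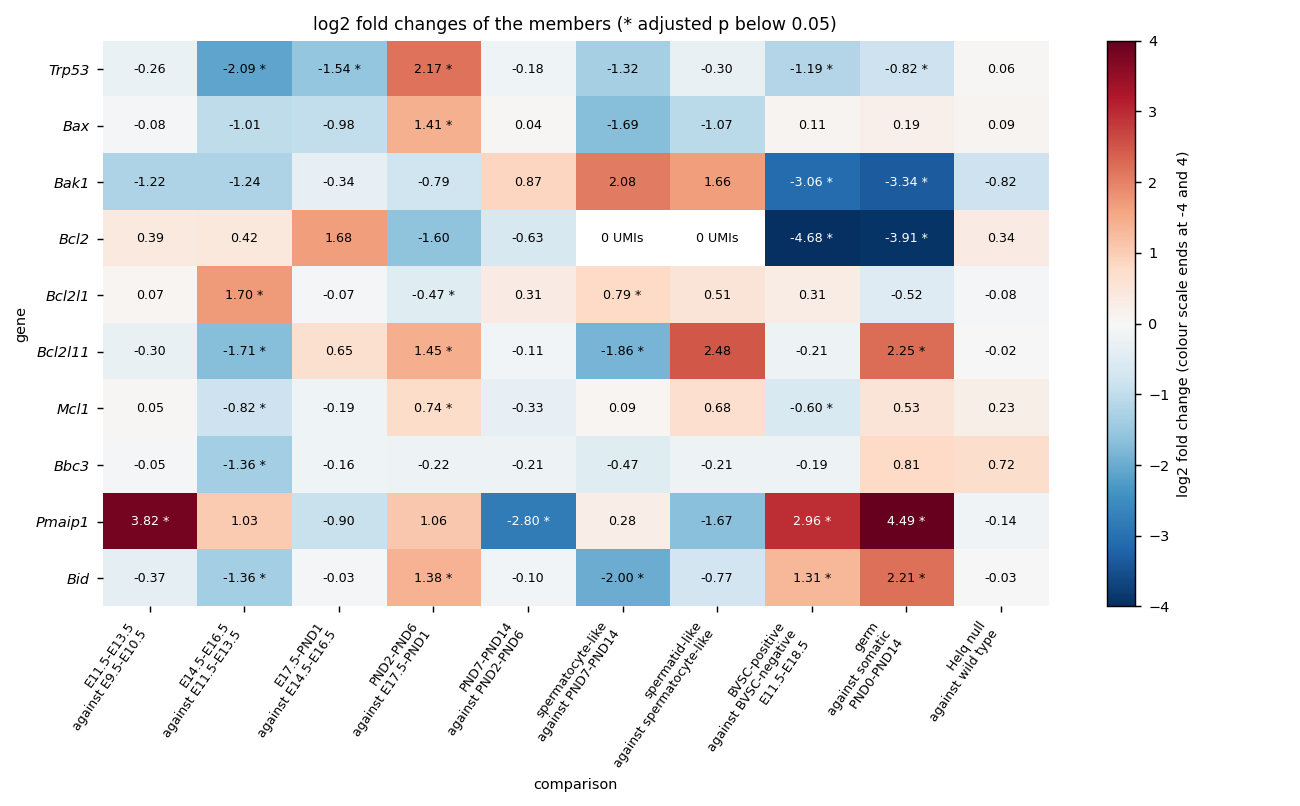
Log2 fold change of each of the 10 genes (rows) in 10 comparisons (columns), red for higher in the first group and blue for lower, with a star where the adjusted p was below 0.05 and blank cells where a group held 0 UMIs of the gene. Stars crowd in the columns of E14.5 to E16.5, PND2 to PND6 and the comparisons with BVSC-negative and somatic-like cells, and the column of Helq null cells holds none.

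Trp53 (chr11:69580359-69591873, forward strand) was high and even in early germ cells. It lay at 404 and 456 CPM in the 2 replicates of E9.5 and 496, 458 and 426 CPM in the 3 of E10.5. From E11.5 to E13.5 the 6 pools held 247 to 449 CPM (median 393, n = 6). Their difference from the pools of E9.5 to E10.5 was not called (log2 -0.26, SE 0.43, adjusted p = 0.906). At E13.5 the replicates lay far apart, at 247 and 449 CPM.

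The fall of Trp53 came with the exit from mitosis. Its level was 209 and 189 CPM at E14.5, 59.8 and 88.5 CPM at E15.5 and 22.2 and 27.9 CPM at E16.5, a step down at each day in both replicates. The 6 pools of E14.5 to E16.5 averaged 99.4 ± 81.0 CPM (SD, n = 6) against 383 ± 70.9 CPM (SD, n = 6) in the window before, 4.27 times lower with no overlap (log2 -2.09, SE 0.43, adjusted p = 0.000201). In the 8 pools of E17.5 to PND1 it lay at 12.53 to 83.9 CPM (median 49.95, n = 8), and was lower once more, 2.91 times (log2 -1.54, SE 0.39, adjusted p = 0.00429), with ranges that overlap. Of these, E17.5 gave 71.8 and 12.53 CPM, and the first value belongs to the replicate with more Sertoli marker RNA. Without that replicate the difference was log2 -1.65, adjusted p = 0.00496, and without all pools of replicate 2 it was not called (log2 -1.12, adjusted p = 0.454).

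After birth Trp53 came back. Its values were 61.3 and 12.9 CPM at PND0 and 83.9 and 70.7 CPM at PND1, and the 9 pools of PND2 to PND6 held 131 to 181 CPM (median 165, n = 9). All 9 lay above all 8 pools of E17.5 to PND1, with means of 157.5 and 45.9 CPM and a fold of 4.50 in edgeR's fit (log2 2.17, SE 0.37, adjusted p = 1.24e-05). At PND7 to PND14 the 9 pools held 86.4 to 191 CPM (median 147, n = 9) and their difference from PND2 to PND6 missed the threshold (log2 -0.18, SE 0.34, adjusted p = 0.78), although PND12 (87.0 CPM) and PND14 (121 and 86.4 CPM) were the lowest of them. At no time after birth did a germ cell pool reach the lowest value of E9.5 to E10.5.

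Bax (chr7:45461697-45466898, reverse strand), the pore former of the outer membrane, followed Trp53 at a smaller scale. It lay at 477 and 498 CPM at E9.5, 471, 465 and 540.3 CPM at E10.5, and between 404 and 580.2 CPM in the 6 pools of E11.5 to E13.5. The values of E14.5 to E16.5, 379.5 and 377 CPM, then 229 and 283 CPM, then 180.1 and 189 CPM, lay below all of these. The difference missed the threshold (log2 -1.01, SE 0.48, adjusted p = 0.0848), with a spread estimated over all windows. It passed without the pools of replicate 1 of every window, adult replicate 1 among them (adjusted p = 0.0259). The lowest Bax levels before meiosis were those of E18.5, 111 and 133 CPM. At PND2 to PND6 the 9 pools held 302 to 407 CPM (median 363, n = 9), all above the 8 of E17.5 to PND1, which held 111 to 238 CPM (median 173, n = 8), a rise of 2.66 times (log2 1.41, SE 0.41, adjusted p = 0.00498) that was lost without the pools of replicate 2 (adjusted p = 0.207). PND7 and PND8 stood near the level of E10.5, at 451 and 445 CPM and 435 and 424 CPM, and PND12 and PND14 again lower, at 227 CPM and 286 and 238 CPM.

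Bak1 (chr17:27019810-27029009, reverse strand), the second pore former, was nearly absent from these germ cells. It lay at 2.07 to 5.52 CPM in the 5 pools of E9.5 to E10.5 and at 0.579 to 1.74 CPM in the 6 of E14.5 to E16.5, and no comparison of windows up to PND14 called it. Of the UMIs of the 2 pore formers together, Bax made 99.1% (mean over pools) at E9.5 to E10.5 and 99.9% at PND2 to PND6. In the unclassed cells of E6.5 and E7.5 Bak1 stood at 11.7 to 35.4 CPM over 7 pools.

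Of the survival genes, Bcl2l1 (chr2:152780668-152831728, reverse strand) rose before birth. Its transcript is spliced into a long form that protects and a short one that promotes death, which 3′ reads cannot tell apart. It held 36.8 and 41.9 CPM at E9.5, 35.6, 40.6 and 37.0 CPM at E10.5 and 32.7 and 20.7 CPM at E11.5. From E13.5, at 72.1 and 39.5 CPM, it climbed to 107 and 99.2 CPM at E14.5, 177 and 157 CPM at E15.5 and 213 and 232 CPM at E16.5. The windows did not overlap, and the rise was 3.24 times (log2 1.70, SE 0.23, adjusted p = 2.15e-07). Its plateau lasted to PND0, at 230.4 and 214 CPM at E17.5, 216 and 160.3 CPM at E18.5 and 196 and 226 CPM at PND0. By PND2 to PND6 the 9 pools held 86.8 to 126 CPM (median 102, n = 9), all below the 8 of E17.5 to PND1 (1.39 times, log2 -0.47, SE 0.19, adjusted p = 0.0342). That call did not last without E17.5 replicate 1 (adjusted p = 0.0778) or with pools of at least 20 cells (adjusted p = 0.0738). PND12 and PND14 were again higher than most pools of their window, at 200.3 CPM and 122 and 157 CPM.

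Mcl1 (chr3:95658788-95663176, forward strand), a survival protein of short life, fell 1.76 times at E14.5 to E16.5 (log2 -0.82, SE 0.23, adjusted p = 0.00381), from 82.6 ± 24.3 CPM (SD, n = 6) to 55.7 ± 8.61 CPM (SD, n = 6). It rose 1.68 times at PND2 to PND6 (log2 0.74, SE 0.19, adjusted p = 0.00177), to 78.6 ± 12.1 CPM (SD, n = 9), and both pairs of windows overlap. Both calls were lost without the pools of replicate 2 (adjusted p = 0.092 and 0.396). Bcl2 (chr1:106538178-106714274, reverse strand), the founding member, stayed at or under 6.61 CPM in all pools but 1, the 10 cells of PND0 replicate 2 with 15.2 CPM, and no window to PND14 was called as different from the one before in edgeR's test. It was highest from E16.5 to PND1, at 2.92 and 4.25 CPM at E16.5 and 5.56 and 4.28 CPM at E18.5, against 0.405 and 0.442 CPM at PND5. DESeq2 called the fall at PND2 to PND6 and edgeR did not (log2 -1.60, SE 0.76, adjusted p = 0.0804).

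Among the BH3-only genes Pmaip1, the gene of NOXA, had the widest swings. It was at 0.387 to 5.78 CPM at E9.5 to E10.5 and at 4.53 and 4.28 CPM at E11.5, then rose to 20.96 and 39.8 CPM at E12.5, 63.6 and 39.9 CPM at E13.5 and 123 and 132 CPM at E14.5. From E9.5 to E10.5 to E11.5 to E13.5 the rise was 14.2 times (log2 3.82, SE 0.92, adjusted p = 0.00836), with ranges that overlap at E11.5, and was lost without the pools of replicate 1 or 2 (adjusted p = 0.105 and 0.394) and where cells had to carry germ markers as well as the gate (adjusted p = 0.795). The peak passed within 2 days, with 45.2 and 75.1 CPM at E15.5 and 9.56 and 12.3 CPM at E16.5. A second peak came after birth, from 71.8 and 19.9 CPM at PND0 to 127 and 110.5 CPM at PND1 and 67.6 and 137 CPM at PND4, and ended at PND7 with 6.46 and 9.55 CPM. All 9 pools of PND7 to PND14 lay below all 9 of PND2 to PND6 (6.95 times lower, log2 -2.80, SE 0.66, adjusted p = 0.00205), a call lost without the pools of replicate 2 (adjusted p = 0.556). In the cells of E6.5, before germ cells could be sorted, Pmaip1 stood at 51.6, 45.2 and 45.1 CPM.

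Bid (chr6:120891930-120916853, reverse strand), which links the death receptors to the mitochondrion, ran near 116 CPM at E9.5 to E10.5. It fell to 58.8 and 43.5 CPM at E14.5, 47.0 and 45.6 CPM at E15.5 and 24.9 and 25.5 CPM at E16.5, 2.56 times lower than at E11.5 to E13.5 with no overlap (log2 -1.36, SE 0.47, adjusted p = 0.0188, lost without the pools of replicate 2, adjusted p = 0.298). It stayed at 26.1 and 31.0 CPM at E18.5 and was back at 109 and 86.3 CPM by PND1. The window of PND2 to PND6, 88.0 to 119 CPM (median 105, n = 9), was 2.60 times above that of E17.5 to PND1 (log2 1.38, SE 0.40, adjusted p = 0.00504), and the ranges overlap at PND1. That call too was lost without the pools of replicate 2 (adjusted p = 0.33).

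Bcl2l11 (chr2:128126038-128162547, forward strand), the gene of BIM, went down 3.27 times at E14.5 to E16.5 (log2 -1.71, SE 0.45, adjusted p = 0.00228) and up 2.72 times at PND2 to PND6 (log2 1.45, SE 0.38, adjusted p = 0.00197). Its levels were 10.6 to 29.1 CPM (median 23.8, n = 6), then 3.90 to 11.97 CPM (median 7.95, n = 6), and later 23.0 to 48.6 CPM (median 31.6, n = 9). Both calls were lost without the pools of replicate 2 (adjusted p = 0.235 and 0.127). Within PND7 to PND14 it was 37.9 and 43.9 CPM at PND10 and 12.7 and 12.2 CPM at PND14. Bbc3 (chr7:16308393-16318205, forward strand), the gene of PUMA and a p53 target, fell 2.57 times at E14.5 to E16.5 (log2 -1.36, SE 0.45, adjusted p = 0.0138), from 7.64 ± 3.78 CPM (SD, n = 6) to 3.61 ± 1.22 CPM (SD, n = 6), with overlap and with no call without the pools of either replicate (adjusted p = 0.14 and 0.184). At these few CPM its other windows did not differ detectably.

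The opposite courses of Bax and Bcl2l1 are seen in their ratio. In UMIs, Bax exceeded Bcl2l1 12.8 ± 1.23 times (SD, n = 5 pools) at E9.5 to E10.5 and 12.9 ± 4.33 times (n = 6) at E11.5 to E13.5, and 2.02 ± 1.33 times (n = 6) at E14.5 to E16.5. At E17.5 to PND1 the transcripts were about equal, with a ratio of 0.978 ± 0.411 (n = 8), and at PND2 to PND6 it was 3.51 ± 0.528 (n = 9) and at PND7 to PND14 3.24 ± 1.36 (n = 9). BVSC-negative cells of E11.5 to E18.5 held a ratio of 3.32 ± 1.04 (n = 16). Bcl2l1 made 33.3% of the summed UMIs of Bcl2, Bcl2l1 and Mcl1 at E11.5 to E13.5 and 72.8% at E14.5 to E16.5 (means over pools). The ratio was not tested on its own, since both genes were tested above.

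**Figure D3:**
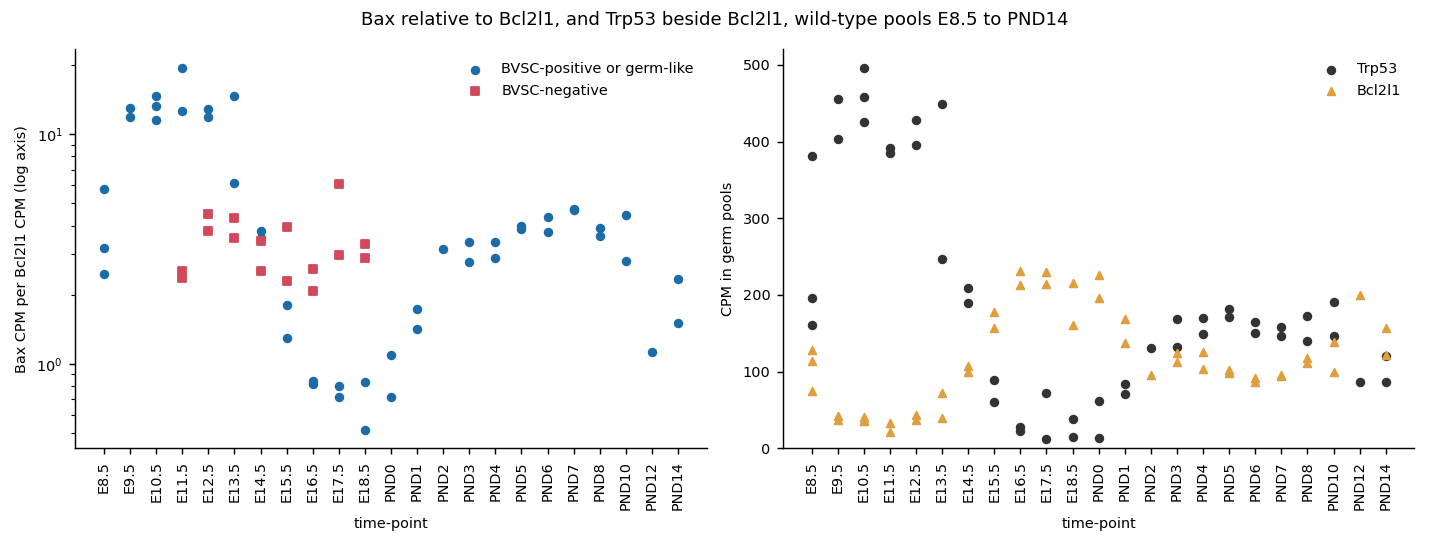
Left, UMIs of Bax per UMI of Bcl2l1 (log axis) by time-point in germ cell pools and BVSC-negative pools, 1 point per pool. Right, levels (y axis, CPM) of Trp53 (circles) and Bcl2l1 (triangles) by time-point in germ cell pools of E8.5 to PND14, 1 point per pool and gene. The germ cell ratio goes from a mean of 12.9 at E11.5 to E13.5 to 0.978 at E17.5 to PND1, and pools with more Trp53 hold less Bcl2l1.

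Across the 51 wild-type germ cell pools, which share libraries and stages and are given as a description, the Spearman rho was 0.94 between Trp53 and Bax, 0.74 between Trp53 and Bid and 0.82 between Bax and Bid. It was -0.91 between Trp53 and Bcl2l1 and -0.90 between Bax and Bcl2l1. Of 8470 genes with a mean of at least 20 CPM, those whose course over the 51 pools was most like that of Trp53 were Dkc1 (0.96), Nop58 (0.96), Gart (0.96). For Bax they were Grwd1 (0.96), Nutf2-ps1 (0.95), Lamtor2 (0.95), for Bid Nr2c2ap (0.94), Ppat (0.91), Psat1 (0.90) and for Bcl2l1 Xrra1 (0.95), Ccdc181 (0.94), Gnao1 (0.94). For Pmaip1 they were Trap1a (0.87), Ppif (0.83), Hes1 (0.82), for Bbc3 Ptges2 (0.85), Qtrt1 (0.80), for Bak1 Cerk (0.90), 2310022A10Rik (0.88), Lrrc34 (0.88) and for Bcl2 Ap2a2 (0.80). No gene reached 0.8 for Mcl1 or Bcl2l11.

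The embryonic gonads of E13.5, E14.5, E15.5 and E16.5 were collected as a proximal, a central and a distal part, each with about equal numbers of cells. At E16.5 Trp53 in replicate 1 was 30.9 CPM in the proximal, 16.7 in the central and 18.4 in the distal part, and in replicate 2 33.3, 26.1 and 23.9 CPM. The proximal part was the highest in both replicates. At E14.5 the order differed, with the central part highest, at 250.1 CPM in replicate 1 and 196 CPM in replicate 2. At the other time-points the replicates differed in their order. At E13.5 the proximal part was the highest in replicate 1 (267 CPM) and the lowest in replicate 2 (420.2 CPM), and at E15.5 the highest was the proximal part in replicate 1 (74.9 CPM) and the distal part in replicate 2 (113 CPM). With 2 gonad samples a time-point the parts were not tested, and these differences are small beside the fall from E14.5 to E16.5.

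From PND30 on germ cells in meiosis or past it were present, earlier germ cells were not excluded, and the family looked different. Cells of PND30 were sorted by DNA content, 4N being that of cells before the first meiotic division and 1N that of spermatids. The sorted pools were mixed by their markers: 8 summed spermatid markers stood at 1271 and 1063 CPM in 4N, 3214 and 3505 CPM in 2N and 5029.9 and 8082 CPM in 1N pools, and by the 200 CPM rule 63 of 286 4N and 240 of 277 2N cells were spermatid-like. In the 2 replicates at PND30 Bax was 5.35 and 2.49 CPM in 4N, 1.64 and 5.16 CPM in 2N and 3.35 and 4.82 CPM in 1N cells. Trp53 was 24.9 and 24.3 CPM in 4N, 15.1 and 17.2 CPM in 2N and 8.36 and 5.59 CPM in 1N cells. All 6 pools lay far below the pools of PND7 to PND14, of which the lowest held 227 CPM of Bax and 86.4 CPM of Trp53. Bcl2l1 was at 224 and 222 CPM in 4N, 153 and 154 CPM in 2N and 142 and 77.9 CPM in 1N cells, against 94.4 to 200.3 CPM at PND7 to PND14. Its 4N pools lay above all of that window, both 2N pools and 1 of the 1N pools inside it and the other 1N pool below it. Bak1 rose to 8.10 and 5.18 CPM in 4N cells, and so came to exceed Bax in both 4N pools.

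**Figure D4:**
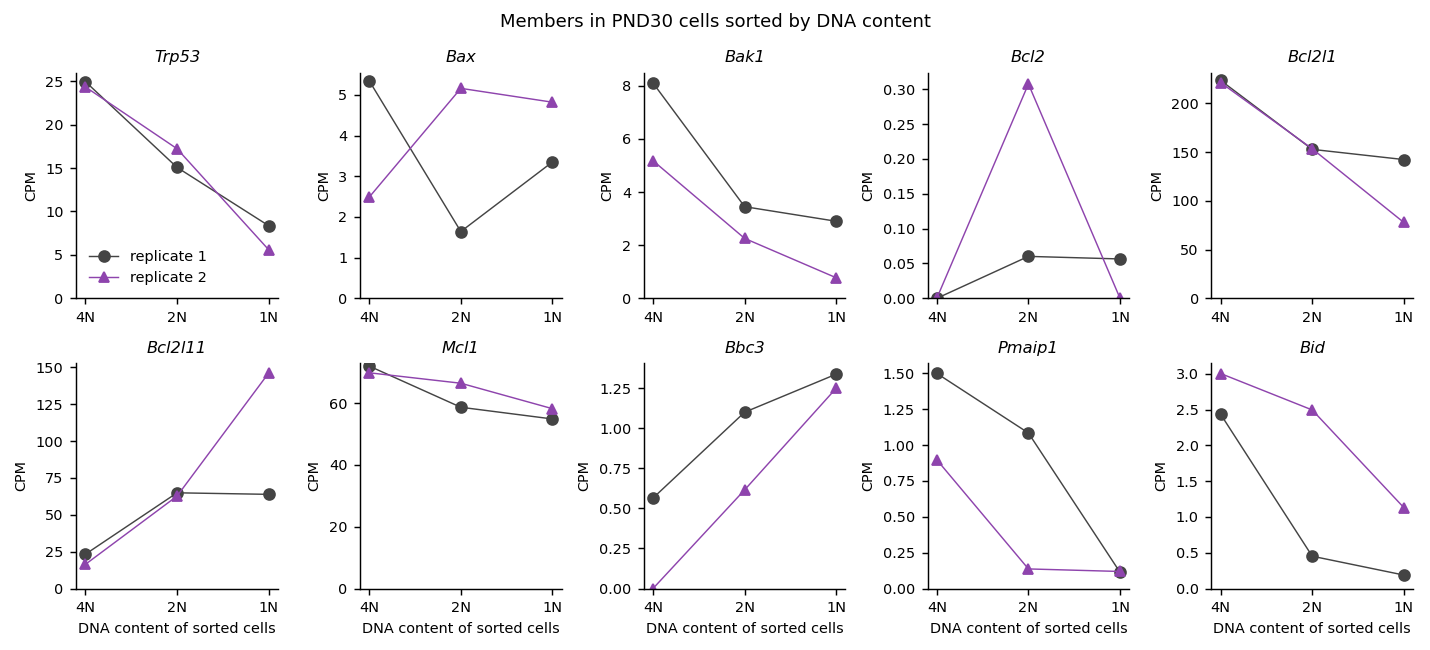
Level of each of the 10 genes (CPM) in PND30 cells sorted as 4N, 2N and 1N, 1 point per replicate (n = 2 each). Bcl2l11 rises from 23.3 and 16.4 CPM in 4N to 63.9 and 146 CPM in 1N cells, and both 1N points of Trp53 and Bcl2l1 lie below the 4N points, without passing the test.

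Against PND7 to PND14, the 4N pools called 3 members higher and 5 lower, with 32.4% of all genes higher and 24.5% lower. Bak1 (log2 3.77, SE 0.74, adjusted p = 3.71e-05), Bcl2l1 (log2 1.40, SE 0.25, adjusted p = 1.1e-05) and Mcl1 (log2 0.82, SE 0.26, adjusted p = 0.00635) rose. Bax fell 60.6 times (log2 -5.92, SE 0.43, adjusted p = 4.08e-15), Bid 22.6 times (log2 -4.50, SE 0.60, adjusted p = 3.29e-08), Trp53 3.67 times (log2 -1.87, SE 0.63, adjusted p = 0.0102), and Bbc3 and Bcl2 fell as well. Bcl2 had 0 UMIs in both 4N pools, which allows up to 0.0385 and 0.104 CPM (3 counts a pool, counting error only). Between 1N and 4N cells, with 5.48% of all genes higher and 7.52% lower, Bcl2l11 rose 6.14 times (log2 2.62, SE 0.57, adjusted p = 0.000965) and Bid fell 3.95 times (log2 -1.98, SE 0.63, adjusted p = 0.0273). The differences of Trp53 (log2 -1.56, adjusted p = 0.176) and Bcl2l1 (log2 -0.75, adjusted p = 0.194) were not called. The DNA content and 200 CPM groupings were chosen after the data had been seen.

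Cells classed by markers present at 200 CPM gave more pools, over PND30, PND35 and the adult. With all 6 spermatocyte-like pools, 9 of the 10 members were called against PND7 to PND14, 3 higher and 6 lower, where 33.7% of all genes were higher and 34.4% lower. Bak1 rose 5.35 times (log2 2.42, SE 0.54, adjusted p = 0.000105), Bcl2l1 2.698 times and Mcl1 1.43 times. Bcl2l11 fell 8.09 times, Bax 7.53 times (log2 -2.91, SE 0.45, adjusted p = 2.49e-07), Bid 7.01 times, Bcl2 5.21 times, Bbc3 3.28 times and Trp53 2.89 times. Pmaip1 was not called (log2 -0.84, SE 0.66, adjusted p = 0.255).

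Adult replicate 1 stood apart in this class, with 186 CPM of Bax, 43.2 CPM of Bid and 23.6 CPM of Pmaip1. The 5 other spermatocyte-like pools held 4.46 to 24.2 CPM of Bax (median 14.7, n = 5), 2.89 to 7.06 CPM of Bid (median 5.13, n = 5) and 1.96 to 3.34 CPM of Bcl2l11 (median 2.66, n = 5). Leaving this replicate out was chosen after its levels of the members had been seen. Without it all 10 members were called, 3 higher and 7 lower, with 36.0% of all genes higher and 35.4% lower. Bax was then 19.1 times lower (log2 -4.25, SE 0.36, adjusted p = 5.87e-15), Bid 12.6 times and Bcl2 27.8 times, and Pmaip1 was called (log2 -2.08, SE 0.69, adjusted p = 0.00668). The fold of Bcl2 has no firm size, since these 5 pools held 0 to 0.0965 CPM of it (median 0) and adult replicate 1 held 1.03 CPM. Bcl2l11 and Pmaip1, called lower here, were not called between 4N cells and PND7 to PND14 (log2 0.04, SE 0.42, adjusted p = 0.962, and log2 -2.55, SE 1.14, adjusted p = 0.0529). At 23.3 and 16.4 CPM, Bcl2l11 in 4N pools stood above every spermatocyte-like pool of the 200 CPM rule.

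In spermatid-like against spermatocyte-like cells by the 200 CPM rule, 3 members were called with all pools, where 34.7% of all genes were called (4863 higher and 3937 lower). Bcl2l11 was 16.1 times higher (log2 4.01, SE 0.37, adjusted p = 3.6e-12), Bax lower (log2 -1.39, SE 0.48, adjusted p = 0.0199) and Bid lower (log2 -1.20, SE 0.46, adjusted p = 0.035). By replicate Bcl2l11 was 69.5 and 77.9 CPM in spermatid-like cells of PND30, 37.5 and 18.3 CPM in those of PND35 and 39.8 CPM in those of adult replicate 2. All 5 lay above the 6 spermatocyte-like pools, of which adult replicate 1 was the highest at 6.64 CPM. Without adult replicate 1, where 22.1% of all genes were higher and 8.48% lower, the call of Bcl2l11 was kept (log2 4.29, SE 0.39, adjusted p = 1.12e-12), and it was the only member called both with and without this replicate. Bax (log2 0.10, adjusted p = 0.87) and Bid (log2 -0.20, adjusted p = 0.746) lost their calls, and Bbc3 was called higher (log2 1.36, SE 0.50, adjusted p = 0.0329) and Bcl2l1 lower (log2 -0.56, SE 0.20, adjusted p = 0.0255). With it, Bbc3 stood at log2 0.35 (adjusted p = 0.667) and Bcl2l1 at log2 -0.46 (adjusted p = 0.057).

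The rule at 20 CPM, which put most cells of all ploidies in the spermatid-like class, left 2 spermatocyte-like pools, of which 1 was adult replicate 1. It called 4 members against PND7 to PND14, with 8.56% of all genes higher and 11.1% lower. These were Bcl2l1 (log2 0.79, SE 0.28, adjusted p = 0.0405), Bcl2l11 (log2 -1.86, SE 0.68, adjusted p = 0.0456), Bid (log2 -1.996, SE 0.73, adjusted p = 0.0466) and Bcl2 (adjusted p = 0.0291). Bcl2 had 0 of 22306266 UMIs over the 2 pools, by counting error alone at least 6.84 times below the mean of PND7 to PND14. The pools of that window themselves held 0 to 2.54 CPM of it, so the limit leaves out their spread. The calls of Bcl2l1, Bcl2l11 and Bid were lost without PND8 (adjusted p = 0.0818, 0.0755 and 0.0767), and that of Bcl2 without adult replicate 1 (adjusted p = 0.156). Bax was not called with adult replicate 1 (log2 -1.69, SE 0.73, adjusted p = 0.0914) and was without it (log2 -5.33, adjusted p = 1.05e-07). Between the spermatid-like and spermatocyte-like cells of this rule edgeR called 0 of 10 members, with 1.91% of all genes higher and 0.346% lower, 2 were at an unadjusted p under 0.05 and DESeq2 called 1, Bcl2l11.

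To see which of these levels set germ cells apart, BVSC-positive cells were compared with BVSC-negative cells of the gonads, 16 pools each, with time-point as a covariate. Of the 10 genes 2 were higher in germ cells and 4 lower, with 36.5% of 21368 genes higher and 23.8% lower. Pmaip1 lay at 4.28 to 132 CPM (median 19.5, n = 16) in BVSC-positive and 0 to 16.97 CPM (median 2.41, n = 16) in BVSC-negative cells, 7.77 times higher with overlap (log2 2.96, SE 0.55, adjusted p = 3.6e-05). Bid lay at 23.5 to 117 CPM (median 46.3, n = 16) against 0.682 to 41.6 CPM (median 15.3, n = 16), 2.49 times higher (log2 1.31, SE 0.37, adjusted p = 0.00342). Since BVSC-negative pools mix Sertoli, interstitial and other cells, a low level there can be a low level in all of them or a high one in few.

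Bak1 was the member that parted the gates without overlap, at 0.545 to 2.71 CPM (median 1.13, n = 16) in BVSC-positive and 3.41 to 29.7 CPM (median 6.75, n = 16) in BVSC-negative cells (8.36 times lower, log2 -3.06, SE 0.39, adjusted p = 1.02e-07). Bcl2 was 25.7 times lower in germ cells (log2 -4.68, SE 0.60, adjusted p = 1.14e-07), at 0.0828 to 5.55 CPM (median 1.25, n = 16) against 1.63 to 88.0 CPM (median 31.2, n = 16), with overlap. Trp53 was 2.28 times lower over the whole span (log2 -1.19, SE 0.38, adjusted p = 0.00853), a mean over opposite signs: at E12.5 germ cells held 428 and 395 CPM and negative cells 306 and 255 CPM, at E16.5 22.2 and 27.9 CPM and 192 and 214 CPM. Its call was lost without the pools of replicate 1 or 2 (adjusted p = 0.25 and 0.0628). Mcl1 was 1.51 times lower (log2 -0.60, SE 0.15, adjusted p = 0.00113), which was lost in the same way (adjusted p = 0.176 and 0.0712). Bid lost its call without the pools of replicate 1 (adjusted p = 0.0933).

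After birth 22 germ-like pools of PND0 to PND14 were set against 3 somatic-like ones, and 3 members were higher and 3 lower, with 31.7% of 23839 genes called (4690 higher and 2864 lower). All these cells were picked by their look as germ cells, so the somatic-like pools are no even sample of the somatic cells of the testis. Pmaip1 was at 6.26 to 137 CPM (median 29.3, n = 22) in germ-like and at 3.44, 1.28 and 1.13 CPM in somatic-like pools, which do not overlap (log2 4.49, SE 0.56, adjusted p = 3.29e-07). Bid (log2 2.21, SE 0.45, adjusted p = 0.000333) and Bcl2l11 (log2 2.25, SE 0.50, adjusted p = 0.000859) were the others higher in germ cells. Lower were Bcl2 (log2 -3.91, SE 1.07, adjusted p = 0.00545), Bak1 (log2 -3.34, SE 1.24, adjusted p = 0.0388) and Trp53 (log2 -0.82, SE 0.29, adjusted p = 0.0303), and Bak1 and Trp53 did not overlap. The germ-like and somatic-like cells of a replicate came from the same collection, and with the replicate as a block, which only the 2 replicates of PND6 could fill in both classes, Trp53, Bak1, Bcl2 and Bcl2l11 lost their calls (adjusted p = 0.284, 0.434, 0.162 and 0.408). Pools of at least 20 cells left a single somatic-like pool and no call of Bak1 and Bcl2 (adjusted p = 0.356 and 0.173). With markers present at 200 CPM there were 17 somatic-like pools, with 39.8% of all genes higher and 22.0% lower in germ cells. All 6 members kept their call and direction, but the sizes of 3 moved by over 1.5 times, Pmaip1 from log2 4.49 to 2.74, Bcl2l11 from log2 2.25 to 0.83 and Bcl2 from log2 -3.91 to -3.11. Bak1 (log2 -3.04, SE 0.45, adjusted p = 2.99e-07) now overlapped, at 0.684 to 16.2 CPM (median 7.80, n = 17) in the somatic-like and 0.101 to 9.09 CPM (median 0.901, n = 24) in the germ-like pools, and Bbc3 was lower in germ cells as well (log2 -1.23, SE 0.40, adjusted p = 0.00852).

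The Helq null cells ask whether the loss of a helicase of DNA repair moves the RNA of Trp53 and the family. Only RNA was read, so the amount and activity of the p53 protein were not measured here. By immunostaining the study reported more apoptosis and a hyperactivated ATR, a checkpoint kinase, in null germ cells. The 3′ reads lie outside the deletion, so the level of Helq is no check of the genotype, and it was 15.9 to 39.6 CPM in the 9 null germ cell pools. Null and wild-type animals came from different crosses, so the loss of Helq cannot be told apart from the line of the animals. With time-point as a covariate, 0 of the 10 genes were called between null and wild-type BVSC-positive cells, 0 were at an unadjusted p under 0.05 and DESeq2 called 0. Over all 21575 genes 0.705% were called (152, with 2266 at an unadjusted p under 0.05 and 531 by DESeq2). Trp53 differed by 0.06 on the log2 scale (95% interval -0.38 to 0.49, adjusted p = 0.962), Bax by 0.09 (-0.14 to 0.33), Bcl2l1 by -0.08 (-0.40 to 0.25), Bbc3 by 0.72 (-0.01 to 1.44) and Pmaip1 by -0.14 (-0.60 to 0.32).

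At E11.5 and E12.5 null cells were represented by 1 pool a time-point, with 459 and 407 CPM of Trp53, against 391 and 386 CPM and 428 and 395 CPM in wild-type pools. At E13.5 Trp53 was 378 and 229.6 CPM in null and 247 and 449 CPM in wild-type pools, and at E14.5 188 and 85.4 and 209 and 189 CPM. At E15.5 it was 161 and 146 CPM in null and 59.8 and 88.5 CPM in wild-type pools, and at E18.5 26.2 and 15.3 and 38.6 CPM. Among the time-points with 2 null pools, the null pools stand above the wild-type pools at E15.5, whereas 1 lies just under and 1 far under them at E14.5. The study reported a larger share of PGCs in transition to mitotic arrest among null cells at E13.5 and E15.5. It also reported a developmental arrest of null cells. An effect of genotype on a gene cannot be told apart from such a difference in the mix of stages.

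**Figure D5:**
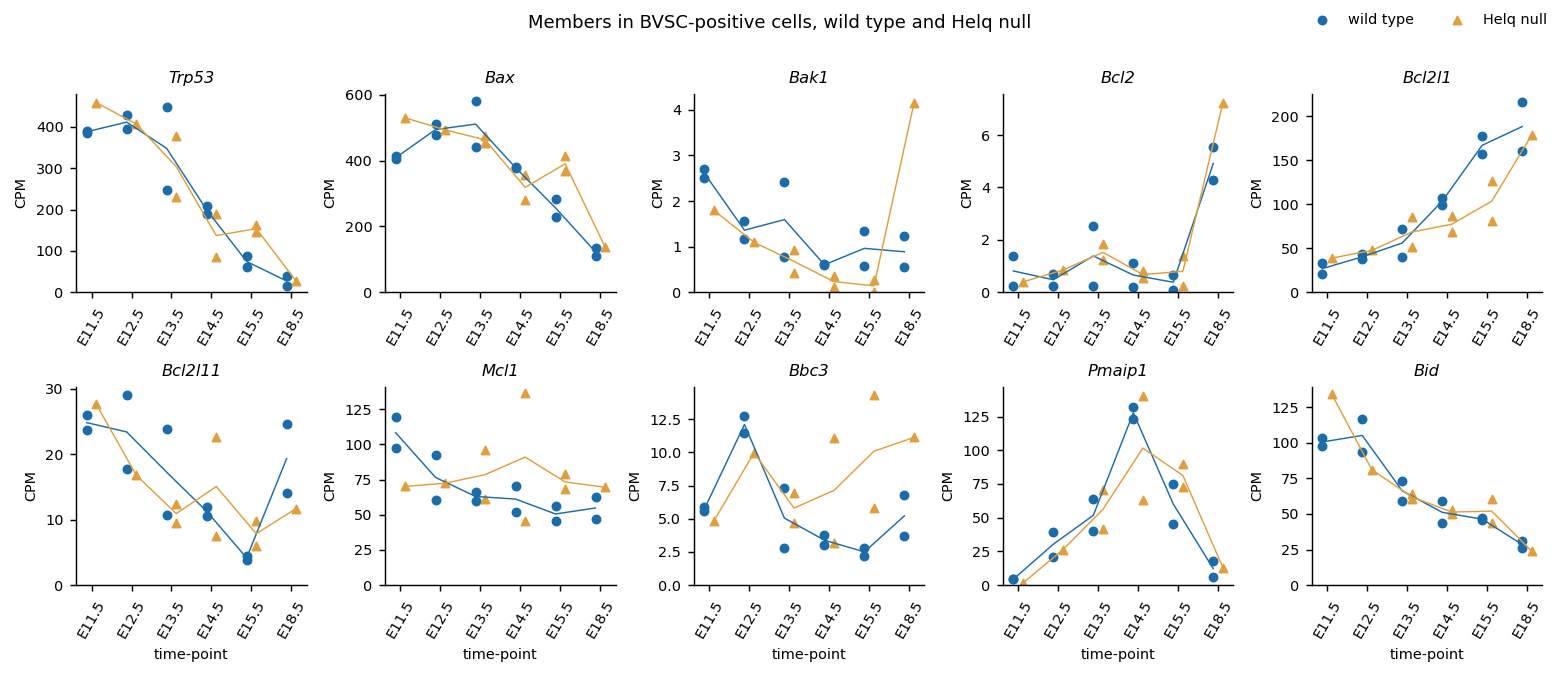
Level of each of the 10 genes (CPM) by time-point in wild-type (circles) and Helq null (triangles) BVSC-positive cells of E11.5 to E18.5, 1 point per pool. At E15.5 the null pools lie above the wild-type pools for Trp53 (161 and 146 against 59.8 and 88.5 CPM) and below them for Bcl2l1 (80.9 and 126 against 177 and 157 CPM).

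At E15.5 Bax was 367 and 413 CPM in null and 229 and 283 CPM in wild-type pools, and Bcl2l1 80.9 and 126 and 177 and 157 CPM. In all, 5 of the 10 genes had both null pools above both wild-type pools at E15.5 (Trp53, Bax, Bcl2l11, Mcl1 and Bbc3), as had 21.2% of all genes, and 2 had both below (Bak1 and Bcl2l1), as had 26.4%. At E14.5 none stood above and 4 below (Trp53, Bax, Bak1 and Bcl2l1), against 15.3% and 16.6% of all genes. At E13.5 none stood apart either way, against 27.8% of all genes. Each of these comparisons rests on 2 pools a genotype.

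A genotype effect for each window of time gave no call for a member either. It called 0.133% of 24787 genes at E11.5 to E12.5, 0.597% at E13.5 to E15.5 and 0.0323% at E18.5, and the change of the effect from E11.5 to E12.5 to E13.5 to E15.5 called 0% (1537 genes at an unadjusted p under 0.05, 72 called by DESeq2). At E13.5 to E15.5 Bbc3 (log2 1.05, adjusted p = 0.398), Mcl1 (log2 0.45, adjusted p = 0.41) and Bak1 (log2 -1.79, adjusted p = 0.458) were at an unadjusted p under 0.05, and at E11.5 to E12.5 and E18.5 none was. Of 21 genes known as targets of p53, 4 were called higher in null cells at E13.5 to E15.5 and none lower. These were Plk2, a polo-like kinase (log2 2.09, SE 0.41, adjusted p = 0.00986), Phlda3, a repressor of Akt (log2 1.56, SE 0.34, adjusted p = 0.0313), Ccng1, cyclin G1 (log2 1.08, SE 0.23, adjusted p = 0.0277), and Trp53inp1. Their list had a median log2 fold change of 0.47, against 0.02 over all genes, and the list of members 0.05. Over the 3 windows together none of the 21 was called. Whether the 4 calls go with the mix of stages or with the line of the animals was not tested.

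Around the members, 4 lists were read from the same fits: 12 other Bcl2 family genes, 8 of the p53 family and its regulators, 21 p53 targets and 10 of the caspase pathway. At E11.5 to E13.5 the lists held 1 gene called higher and 3 lower of these 51, with 2.53% of all genes higher and 2.34% lower. Sesn2, a p53 target, rose from 28.6 ± 7.85 to 61.9 ± 12.6 CPM (log2 1.08, SE 0.26, adjusted p = 0.00903). Bad, a BH3-only gene, went from 139 ± 20.1 to 66.3 ± 32.3 CPM (log2 -1.11, SE 0.33, adjusted p = 0.037), and Casp8, the caspase of the death receptors, from 5.89 ± 2.62 to 0.812 ± 0.371 CPM (log2 -2.86, adjusted p = 0.00279). Dram1 went from 0.354 ± 0.534 CPM to 0 of 145684991 UMIs over 6 pools, which allows up to 0.0206 CPM. At E14.5 to E16.5, where Trp53 fell, 3 of 21 rose and 5 fell among the p53 targets (median log2 -0.64, against 0.66 over all genes), with 31.1% of all genes higher and 10.9% lower. Gdf15 fell from 7.04 ± 3.17 to 2.62 ± 1.41 CPM (log2 -1.73, SE 0.64, adjusted p = 0.0273), and Fas, a death receptor, rose from 0.146 ± 0.217 to 9.07 ± 7.53 CPM (log2 5.50, SE 1.52, adjusted p = 0.00379). Bad fell again, from 66.3 ± 32.3 to 23.3 ± 3.99 CPM (log2 -1.77, SE 0.32, adjusted p = 4.02e-05). Eda2r, another p53 target, fell from 10.3 ± 4.29 to 2.67 ± 1.76 CPM (adjusted p = 0.0402), and Dram1 rose to 3.78 ± 4.46 CPM (adjusted p = 3e-07). Of the other Bcl2 family genes 5 of 12 rose and 1 fell. Those that rose were Bcl2l2, Bcl2l10, Bcl2a1b and Bcl2a1d, which protect, and Hrk, which is BH3-only, Bcl2a1d from 0.0065 ± 0.0159 to 1.57 ± 2.62 CPM.

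At E17.5 to PND1 1 of 21 rose and 2 fell among the p53 targets, Perp, a membrane protein, from 13.6 ± 15.52 to 67.7 ± 25.6 CPM (log2 2.09, SE 0.71, adjusted p = 0.0347), with 6.39% of all genes higher and 10.8% lower. Casp8 rose as well (log2 1.80, adjusted p = 0.0189), and Eda2r (log2 -2.72, adjusted p = 0.0163), Bmf (log2 -1.49, adjusted p = 0.00874) and, at under 1 CPM in both windows, Htra2 (log2 -3.89, adjusted p = 0.0114) fell. At PND2 to PND6, where Trp53 came back, 7 of 21 rose and 2 fell (median log2 0.44, against -0.43 over all genes), with 17.2% of all genes higher and 28.1% lower. Perp went down from 67.7 ± 25.6 to 5.95 ± 6.22 CPM (log2 -3.14, SE 0.64, adjusted p = 0.00014), Fas from 16.9 ± 8.24 to 0.714 ± 1.22 CPM, and Trp63, the relative of p53 known to guard oocytes, from 26.2 ± 11.1 to 1.84 ± 1.75 CPM (log2 -3.44, SE 0.67, adjusted p = 8.32e-05). Bik, a BH3-only gene, rose from 23.4 ± 26.8 to 90.7 ± 24.1 CPM (log2 2.28, SE 0.74, adjusted p = 0.0109), as did Eda2r (log2 3.65, adjusted p = 0.00035) and, at under 1 CPM, Htra2 (log2 3.66, adjusted p = 0.00469). At PND7 to PND14 Cdkn1a, the p53 target that stops the cell cycle, fell from 123 ± 57.4 to 29.7 ± 7.83 CPM (log2 -1.99, SE 0.39, adjusted p = 0.000247) and Bad rose from 26.5 ± 4.26 to 78.7 ± 46.2 CPM (log2 1.62, SE 0.26, adjusted p = 2.59e-05). Bnip3 (log2 1.48, adjusted p = 0.0016) and Atr (log2 1.16, adjusted p = 0.00102) rose too, and Bcl2a1b (log2 -3.75, adjusted p = 0.00835) and Bcl2a1d (log2 -3.35, adjusted p = 0.0106) fell, both from means under 2 CPM.

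Among BVSC-positive against BVSC-negative cells, 2 of 10 of the caspase pathway genes were higher and 6 lower, with 36.5% of all genes higher and 23.8% lower. Casp8 was at 5.53 ± 6.30 CPM in germ cells and 46.1 ± 18.7 CPM in negative cells (log2 -3.98, SE 0.34, adjusted p = 4.62e-11). Of the p53 family and regulators 6 of 8 were higher and none lower, beside the same shares over all genes, Trp73 among them (log2 3.25, SE 0.74, adjusted p = 0.000423). Bcl2l14 (log2 4.04, adjusted p = 9.13e-07) and Perp (log2 3.02, adjusted p = 8.27e-07) were higher as well. Bok, a relative of Bax and Bak1, was lower in germ cells (log2 -3.10, SE 0.25, adjusted p = 2.83e-11), as was the p53 target Btg2 (log2 -3.69, SE 0.20, adjusted p = 9.78e-15). After birth, with 3 somatic-like pools, 7 of 21 p53 targets were higher in germ-like cells and 4 lower, with 31.7% of all genes called in either direction. Over the 4 lists the largest rises were those of Bik (log2 4.52, SE 0.47, adjusted p = 1.49e-08), Trp53inp1 (log2 4.01, SE 0.38, adjusted p = 2.69e-09) and Cdkn1a (log2 3.78, SE 0.53, adjusted p = 2.15e-06). The largest falls were those of Fas (log2 -6.26, SE 2.04, adjusted p = 0.0187), Gdf15 (log2 -5.34, SE 0.72, adjusted p = 1.07e-06) and Casp8 (log2 -4.99, SE 0.89, adjusted p = 6.67e-05). Fas was low and uneven, at 2.56 ± 5.13 CPM (SD, n = 22) in germ-like and 8.79 ± 12.05 CPM (SD, n = 3) in somatic-like pools. With the 17 somatic-like pools of the 200 CPM rule 6 of 21 p53 targets were higher and 7 lower, with 39.8% of all genes higher and 22.0% lower. Cdkn1a was no longer called, and Bik was at log2 2.09, Fas at log2 -3.20 and Gdf15 at log2 -3.76. In the 2 pools of spermatocyte-like cells by the 20 CPM rule Zmat3 (log2 2.25, adjusted p = 0.0049), Bad (log2 1.302, adjusted p = 0.0171) and Diablo (log2 0.85, adjusted p = 0.033) were higher than at PND7 to PND14 and Hrk (log2 -4.78, adjusted p = 0.0317) and Gdf15 (log2 -3.01, adjusted p = 0.0478) lower. Pidd1 was lower in spermatid-like than in spermatocyte-like cells of that rule (log2 -1.44, adjusted p = 0.0415). Of its 2 spermatocyte-like pools 1 was adult replicate 1. In 4N cells against PND7 to PND14, 3 of 21 p53 targets were higher and 16 lower. Of 10 caspase pathway genes 2 were higher and 7 lower, with 32.4% of all genes higher and 24.5% lower. By the 200 CPM rule with all pools, 2 of 21 p53 targets were higher and 15 lower. Of the caspase pathway genes 2 were higher and 7 lower, with 33.7% of all genes higher and 34.4% lower.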

How the data were processed

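Per the labels and the methods of the study, the authors took cell barcodes and UMIs from the reads with UMI-tools, trimmed the reads (own script and seqtk), aligned them with STAR (mm10), assigned them to genes with featureCounts (Subread) and counted distinct UMIs with UMI-tools. They deposited these UMI counts, whole numbers without normalization, for 13032 cells and 31053 genes. The time-point, genotype, replicate, gate and DNA content of each cell came from the deposited table of cells, and the study calls its replicates biological.

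Cells with more than 2000 genes and 10000 to 1000000 UMIs were kept. Cells after birth were classed by 8 marker lists, a marker being present at 20 CPM and a class needing 3 markers and under 3 of any opposing list. Germ-like cells from PND30 on with 3 spermatid markers were called spermatid-like, and those with fewer and 3 spermatocyte markers spermatocyte-like. UMIs were summed over at least 10 cells. No doublet caller was run, since cells were sorted or picked singly. edgeR 4.0.16 (TMM, filterByExpr, glmQLFit and glmQLFTest, R 4.3.3, limma 3.58.1) was fitted to all genes, with DESeq2 1.42.0 as an alternative. Fold changes are those of edgeR with its TMM scaling and prior count, and not ratios of mean CPM. A level of 0 UMIs is given with the level that 3 counts allow. Such limits cover counting error only, and p-values and intervals measure the spread between pools. The fits were tested on simulated counts with changes of known size.

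All 10 genes were named in every comparison, and of the 4 pathway lists together up to 3 genes with the largest called rise and 3 with the largest called fall in each comparison with the classes first planned. Genes of like course were the 3 with the highest Spearman rho of log2(CPM + 1) at a mean of at least 20 CPM. Some genes that these rules name are not reported here. The members and lists were chosen with earlier results of these data known. Germ-like and somatic-like cells of a replicate were classed from 1 collection of cells and so are paired. BVSC gates share a replicate number (correlation of deviations from the group means -0.085 to 0.2413), as do Helq null and wild-type pools (-0.3809 to -0.259), which were not taken as paired. Alternatives were DESeq2, RLE scaling, no filter on genes or cells, at least 20 cells, 4 markers with the gate, a replicate block, and leaving out replicates 1 or 2, E17.5 replicate 1, single Helq null pools or PND8. Added after seeing the data were the 200 CPM rule, DNA content, the Helq effect by window, and leaving out all of E17.5 or adult replicate 1. Promoters come from RefSeq tables on GRCm38.p6 and gene positions from GENCODE M21 on mm10.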

Additional observations from a re-analysis of the deposited data

Results flagged for a closer look

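Of 80 groups of 4 to 10 pools (the 10 genes in 8 groups), 12 held a pool whose gap to the next was above Dixon's critical value, where chance flags about 1 in 20 if the pools of a group are alike. Of these, 5 belong to adult replicate 1, whose 20 spermatid-like cells held 96.6 CPM of Trp53, 263 CPM of Bax, 2.65 CPM of Bbc3, 14.96 CPM of Pmaip1 and 55.5 CPM of Bid, against medians over the 6 spermatid-like pools of 24.2, 15.2, 0.866, 2.01 and 5.13 CPM. The same cells held 745 CPM of Dazl and 730 CPM of Sycp1, and 276 CPM of the 8 summed spermatid markers, against 1866 CPM in adult replicate 2.

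The pool of E13.5 replicate 1 held 247 CPM of Trp53, below the other 5 pools of E11.5 to E13.5. Bcl2 was high for its group in E9.5 replicate 1, at 2.76 CPM, and in PND0 replicate 2, at 15.2 CPM in 10 cells. Pmaip1 was high in E10.5 replicate 3, at 5.78 CPM, and Bbc3 in PND4 replicate 2, at 6.24 CPM. The single Helq null pool of E18.5 stood above the other 8 null pools for Bak1, at 4.15 CPM, and Bcl2, at 7.24 CPM. Those other pools are of earlier time-points, and Bcl2 was also high at E18.5 in wild-type pools. Each group spans several time-points, so a flag can mark a time-point and not an odd pool.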

How the results depend on the processing

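Of 110 results for members, 31 were called. Of these 30, all but Bcl2l11 in spermatocyte-like cells, kept their direction under every alternative run, 8 kept their call under every one, and Helq null cells gave no call of a member under any. Over 1410 values under alternatives, 53 lost a call, 50 gained one and 121 values without a call changed sign. Bcl2l11 in spermatocyte-like cells against PND7 to PND14 went from -1.86 to 0.037 (log2) by DNA content, and Pmaip1 turned to -2.08 with the 200 CPM rule without adult replicate 1. In spermatid-like against spermatocyte-like cells Bcl2l1 turned to -0.56 and Bbc3 to 1.36 under that rule, and with the 200 CPM rule and the replicate block to -0.58 and 1.65. Bbc3 in germ-like against somatic-like cells turned to -1.23 at 200 CPM. The cause of these changes was not tested.

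Counts of all genes called moved as follows, ranges covering the alternatives that left out 1 replicate of a time-point or of all of them. At E11.5 to E13.5, 1269 became 2308 with DESeq2, 220 with gate and 4 markers, 2194 at 200 CPM and 29 to 1177 over the range. At E14.5 to E16.5, 10919 became 2625 to 10669, at E17.5 to PND1 4481 became 21 to 4123, and at PND2 to PND6 11800 became 3852 to 10777, and 5113 with gate and 4 markers. At PND7 to PND14, 5187 became 0 to 6353, the 0 being edgeR without replicate 2, with 2257 genes at an unadjusted p under 0.05. For spermatocyte-like cells, 5127 became 3388 without PND8, 17264 at 200 CPM, 14787 by DNA content, 18117 at 200 CPM without adult replicate 1, and 3394 to 9305 over the range, the highest without adult replicate 1. For spermatid-like against spermatocyte-like cells, 587 became 1230 with DESeq2, 322 with RLE, 247 without the filter on genes, 320 without that on cells, 8800 at 200 CPM, 3382 by DNA content and 7750 at 200 CPM without adult replicate 1. The range was 0 (edgeR without replicate 2, 2967 at an unadjusted p under 0.05) to 1084 (without adult replicate 1), with 278 without E17.5 replicate 1, whose pools enter the shared estimate of spread. BVSC gates went from 12883 to 7249 to 13030. Germ-like against somatic-like cells went from 7554 to 15208 at 200 CPM. For Helq null cells 152 became 531 with DESeq2, 378 without the filter on genes, 70 with E13.5 to E15.5 alone and 68 to 190 over the range. For the change of the Helq effect edgeR called 0, with 1537 at an unadjusted p under 0.05, DESeq2 72, edgeR without the filter 98, and 0 to 132 over the range, the highest without replicate 2. With RLE the share of higher calls went from 43.5% to 69.0% for spermatocyte-like cells and from 84.7% to 73.3% for spermatid-like cells.

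With the replicate block, germ-like against somatic-like cells gave 3212 genes, and 14794 at 200 CPM. Spermatid-like against spermatocyte-like cells gave 859, and 13293 at 200 CPM, BVSC gates 13173 and Helq null cells 131. The block changed no call of a member for BVSC gates or Helq null cells. Germ-like against somatic-like cells without replicate 1 or 2, spermatocyte-like contrasts without replicate 1, and the change of the Helq effect without replicate 1 or with gate and markers could not be fitted. Bak1, Bcl2 and Bbc3 rest on few UMIs, and differences among their lowest levels were not detectable at this depth.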

Other observations

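The BVSC-positive cells of E8.5, sorted from whole embryos, entered no window. In their 3 replicates Trp53 was 161, 381 and 196 CPM, Bax 316, 429 and 363 CPM, Bcl2l1 128, 74.1 and 113 CPM and Bcl2l11 3.10, 34.7 and 17.2 CPM. The 14 summed germ cell markers were 24.5, 287 and 151 CPM in the 3 replicates, the highest sum and the highest Trp53 being in replicate 2.

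In the unclassed cells of E6.5 and E7.5 Trp53 lay at 243 to 369 CPM and Bax at 389 to 469.7 CPM over 7 pools, and Pmaip1 at 0.989 to 51.6 CPM. In BVSC-negative cells of Helq null gonads, which entered no comparison, Trp53 lay at 128 to 331 CPM over 9 pools.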
